A study of Homo sapiens with 20 samples.

Results

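The keratins are the intermediate filament proteins of epithelial cells, and the set described here is every entry of the deposited count table whose RefSeq identifier belongs to a human keratin gene, KRT followed by a number, without keratin-associated proteins or pseudogenes. The table held 53 such genes among 24222 entries. The rule goes by gene name alone, though the family was chosen with earlier results of these data known. KRT86 and KRT27 were not analysed here. By tissue, 5 of the 53 were simple epithelial keratins (KRT7, KRT8, KRT18, KRT19 and KRT20), 21 were keratins of stratified epithelia, 8 belonged to the hair root sheath, 16 to the hair shaft and 3 to none of these groups (KRT23, KRT80 and KRT222). By sequence type, 28 were type I and 25 were type II. The transcripts were measured by RNA sequencing in 20 established human cell lines from cancers of the biliary tract, with 1 library per line. By site, 7 lines came from the gallbladder, 3 from the ampulla, 4 from the intrahepatic and 5 from the extrahepatic bile ducts, and OZ carried both duct labels and was left out of the site tests. By source, 7 lines were labelled metastatic, 6 of them from ascites and 1 from a liver metastasis, and 13 were labelled primary. All lines were grown in the same medium with no treatment given in the labels, and no normal duct or tissue was analysed here.

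A keratin filament is built from a type I (acidic) chain paired with a type II (basic or neutral) chain, and the unpaired chain is degraded. Simple epithelia use KRT8 with KRT18. Hepatocytes hold this pair only, while bile duct cells add KRT7 and KRT19, which is why both serve as markers of duct cells in pathology. KRT20 belongs to gut epithelium and to the surface cells of the bladder. Stratified epithelia use KRT5 with KRT14 in the basal layer, KRT1 with KRT10 above it in skin, and KRT4 with KRT13 in the mouth and oesophagus. KRT6 forms, KRT16 and KRT17 are the keratins of wounded or overgrowing epidermis. The genes lie in a type I cluster on chromosome 17 and a type II cluster on chromosome 12, and KRT18 is the type I gene found beside KRT8 on chromosome 12.

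The lines had between 10.47 M and 15.41 M counts each, with a median of 12.49 M. Levels are given as CPM, the counts divided by the TMM-scaled library size in M, so a count of 0 allows up to 3 counts, 0.206 to 0.294 CPM depending on the line. These floors and the intervals given below cover counting error only. Every spread is a spread between lines, and fewer cells of a type and less RNA per cell cannot be told apart. Of the duct markers other than keratins, EPCAM reached 10 CPM in 17 lines, CDH1 in 15 and SOX9 in 19. HuH28 had the highest sum over the 7 fibroblast markers, 8775 CPM, of which COL1A1 made up 7970 CPM, and it was the top line for COL3A1 (588 CPM), PDGFRA (133 CPM) and DCN (48.98 CPM) as well. SNU-1079 followed with 4101 CPM and TGBC2TKB with 2141 CPM, and COL1A2 stayed under 1 CPM in 19 of the 20 lines. The immune markers PTPRC and CD3E did not pass 1.32 CPM in any line, while CD68 was at 10 CPM or more in all 20 and highest in G415 (437 CPM), and CD14 reached 12.9 CPM in TGBC2TKB. The sum of the 4 endothelial markers did not pass 56.2 CPM. Albumin did not pass 9.41 CPM, and of the other hepatocyte markers SERPINA1 (4631 CPM) and TTR (469 CPM) were highest in Mz-ChA-2, CPS1 in TGBC14TKB (968 CPM) and HNF4A in SNU-245 (407 CPM). CPS1 reached 10 CPM in 10 lines and HNF4A in 9. The part of other cell programs in the keratin levels of HuH28, G415 and Mz-ChA-2 was not tested.

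At least 3 simple keratins and 1 stratified keratin reached 10 CPM in every line, and a hair or root sheath keratin did so in 8 lines. Of the 53 genes, 23 reached 10 CPM in at least 1 line, among them all 5 simple keratins, 13 of 21 stratified, 1 of 8 root sheath, 2 of 16 hair and 2 of the 3 other keratins. A further 24 stayed under 1 CPM everywhere and 4 of these had no count in any line. Only KRT8, KRT18 and KRT10 were at 10 CPM or more in all 20 lines. The keratins varied widely between lines: among genes with a median of at least 10 CPM, the 8 keratins had a median standard deviation of 2.07 on the log2 scale, against 0.68 over the 10333 entries at that level. Among genes that reached 10 CPM in any line, the values were 2.08 for the 23 keratins and 0.84 for 14741 entries. Among the 17 keratins described with values the standard deviation was smallest for KRT10, at 0.77, and largest for KRT81, at 4.22.

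**Figure D1:**
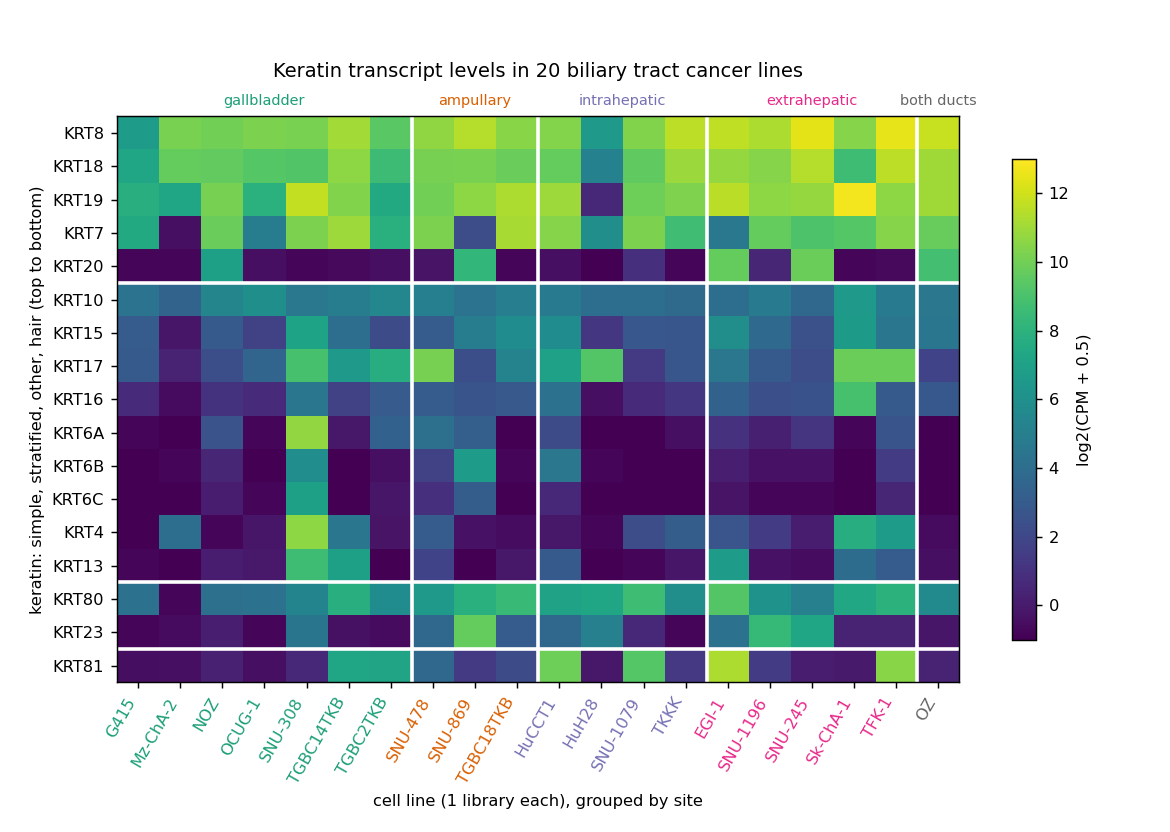
Levels of the 17 keratins with a median of at least 10 CPM or a highest value of at least 50 CPM, as log2(CPM + 0.5), with 1 column per line grouped by site and rows grouped as simple, stratified, other and hair keratins. KRT8 and KRT18 are bright in nearly every column with HuH28 and G415 the exceptions, and bright cells of KRT20, KRT6A, KRT4, KRT23 and KRT81 stand in few columns.

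KRT8, the type II chain of simple epithelia (counted under NR_045962), ran from 95.4 CPM in HuH28 over a median of 1423 CPM to 5711 CPM in TFK-1. KRT18 (NM_000224), its type I partner, ran from 34.8 CPM in HuH28 over a median of 864 CPM to 3085 CPM in TFK-1. For both genes the lowest 2 lines were HuH28 and G415 and the highest 2 were TFK-1 and SNU-245. G415 had 103.7 CPM of KRT8, and the next line up, TGBC2TKB, had 695 CPM. The RefSeq table used for names lists 52 pseudogenes of KRT8 and 68 of KRT18. Of the 50-base stretches of the KRT8 transcript, 32.6% also occur in another annotated keratin gene or pseudogene, and 31.8% of those of KRT18, so these counts are uncertain to the extent that reads were split between copies.

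Duct keratins were high in most lines, but KRT19 was nearly missing in HuH28 alone and KRT7 in Mz-ChA-2 and SNU-869. KRT19 (NM_002276), a type I keratin with hardly any tail domain, ran from 1.03 CPM in HuH28 over a median of 1437 CPM to 7003 CPM in Sk-ChA-1. The HuH28 value rests on 12 counts, with an exact Poisson 95% interval of 0.531 to 1.79 CPM, and every other line had at least 147 CPM. KRT7 (NM_005556), its type II counterpart in duct cells, ran from 0.233 CPM in Mz-ChA-2 over a median of 726 CPM to 2273 CPM in TGBC18TKB. It was also low in SNU-869 (4.51 CPM), EGI-1 (23.6 CPM), OCUG-1 (30.1 CPM) and HuH28 (59.4 CPM). Taking 10 CPM as present, 17 lines had both duct keratins, HuH28 had KRT7 without KRT19, Mz-ChA-2 and SNU-869 had KRT19 without KRT7, and no line lacked both. Compared per length, as CPM per kilobase (kb) of transcript, the medians over the 20 lines were 1034 for KRT19, 669 for KRT8, 553 for KRT18 and 414 for KRT7. The ranges of these 4 overlapped, and the keratin with the highest CPM per kb was KRT8 in 10 lines, KRT19 in 8, KRT7 in TGBC14TKB and KRT17 in HuH28.

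KRT20 (NM_019010), the gut keratin, was all or nothing. It was at 941 CPM in SNU-245, 834 CPM in EGI-1, 448 CPM in OZ, 308 CPM in SNU-869 and 125 CPM in NOZ. The other 15 lines were at 1.31 CPM or less. The high lines came from the extrahepatic ducts, the ampulla, the gallbladder and the line labelled with both ducts, and no line labelled intrahepatic alone was among them. With a threshold of 10 CPM, 4 lines had both KRT7 and KRT20, 14 had KRT7 without KRT20, SNU-869 had KRT20 without KRT7, and Mz-ChA-2 had neither. With a threshold of 50 CPM these numbers were 3, 13, 2 and 2, since KRT7 in EGI-1 and OCUG-1 lies between the thresholds. KRT12, the keratin of the cornea, is the next keratin gene to KRT20 on chromosome 17 and followed it at a far lower level. It was at 9.88 CPM in EGI-1, 4.21 CPM in SNU-245, 3.24 CPM in OZ and 1.90 CPM in SNU-869. These 4 lines, the only ones above 1 CPM of KRT12, are 4 of the 5 with KRT20, a match that was seen in the values and not looked for by a rule. The annotated promoters of the neighbours (RefSeq, GRCh38.p14, minus strand), from 250 bases before to 50 bases after the start site, are shown because KRT12 passed 1 CPM only in lines with KRT20, with the motif TATAAN in capitals on whichever strand it was found. KRT20 lies at chr17:40885193-40885492 and KRT12 at chr17:40867174-40867473.
KRT20: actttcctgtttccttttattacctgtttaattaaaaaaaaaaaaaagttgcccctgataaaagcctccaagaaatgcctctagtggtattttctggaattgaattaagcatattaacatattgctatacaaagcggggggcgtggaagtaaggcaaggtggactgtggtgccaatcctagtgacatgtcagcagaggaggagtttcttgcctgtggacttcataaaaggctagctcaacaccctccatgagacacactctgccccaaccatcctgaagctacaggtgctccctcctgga
KRT12: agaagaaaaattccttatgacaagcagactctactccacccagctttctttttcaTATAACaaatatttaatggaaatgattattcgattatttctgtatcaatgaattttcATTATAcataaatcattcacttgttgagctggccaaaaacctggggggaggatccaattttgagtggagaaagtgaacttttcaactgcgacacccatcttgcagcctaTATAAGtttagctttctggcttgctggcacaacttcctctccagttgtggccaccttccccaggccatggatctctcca
In KRT12 the motif was found at −195 and −29 from the start site, and at −138 on the opposite strand. No match was found in the KRT20 window.

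In summed CPM per kb the simple keratins exceeded the stratified ones in 19 of 20 lines. Simple keratins summed to 102 in HuH28, a median of 3488 and 6576 in TFK-1. Stratified keratins summed to 11.99 in Mz-ChA-2, a median of 68.9 and 2064 in SNU-308. The log2 ratio of simple over stratified had a median of 5.00, was highest in SNU-245 (8.48) and was negative in HuH28 alone (−2.02). The simple share of all keratin CPM per kb was at least 90% in 10 lines, and stratified keratins made up at least 10% in 5 lines, namely HuH28 (72.0%), SNU-308 (33.9%), SNU-478 (21.0%), TGBC2TKB (15.6%) and Sk-ChA-1 (14.7%). In HuH28 this share came with a low total of 574 CPM per kb, and KRT17 alone made up 70.6% of it. The total was lowest in G415, 435 CPM per kb, and highest in TFK-1, 8091 CPM per kb. Keratins took 0.0699% of all counts in G415 and 1.34% in TFK-1. Type II chains summed to within a factor of 2 of type I chains in 18 of 20 lines, with a median log2 ratio of type II over type I of −0.34, which was 0.14 without division by length. The 2 lines outside were Sk-ChA-1 (−2.45), where KRT19 was 67.5% of the keratin total, and HuH28 (−1.92).

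**Figure D2:**
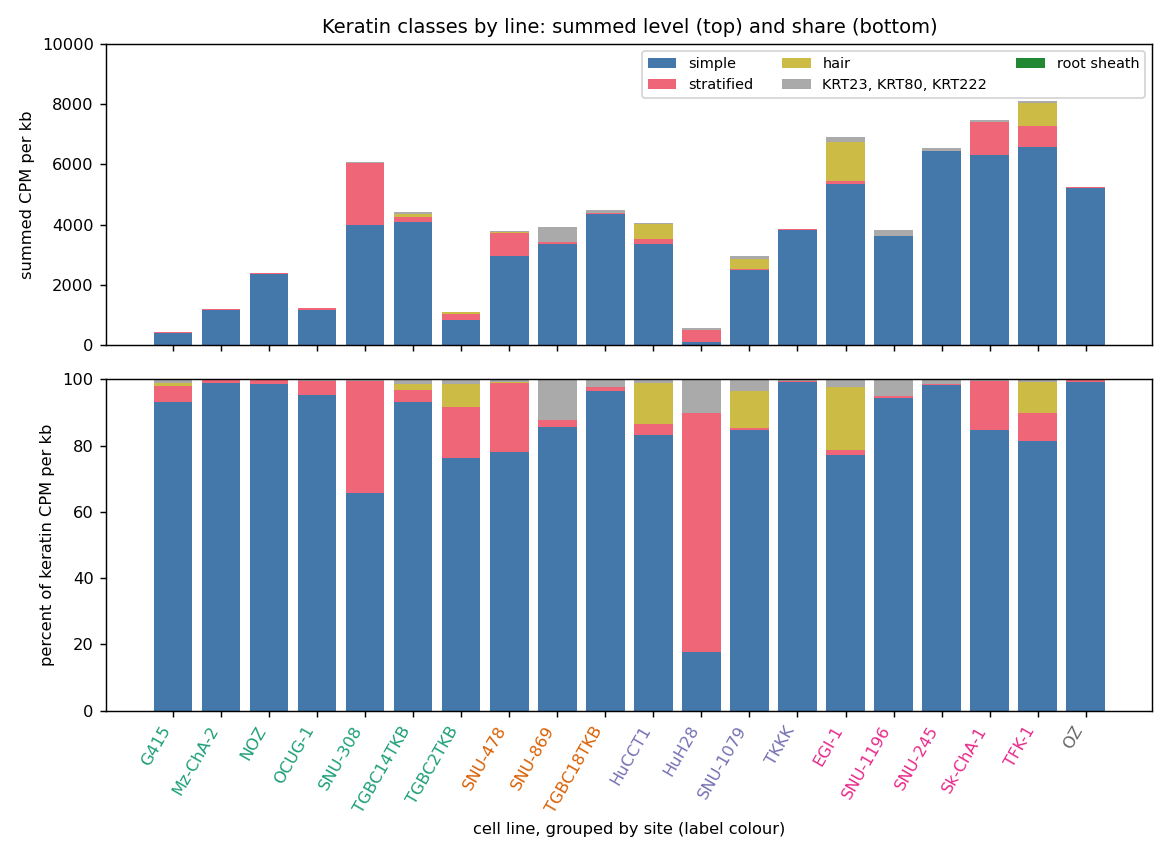
Summed CPM per kb of the keratin classes (top) and the share of each class in percent (bottom), 1 bar per line, grouped by site through the colour of the line names. The blue simple part fills most of each bar except in HuH28, where the stratified part is 72.0%, and the yellow hair part is largest in EGI-1 at 18.9%.

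Among the stratified keratins, KRT10 was the even one and KRT17 the most variable of those with a median of at least 10 CPM. KRT10 (NM_000421), a suprabasal skin keratin, ran from 10.5 CPM in Mz-ChA-2 over a median of 25.01 CPM to 94.1 CPM in Sk-ChA-1. KRT15 (NM_002275), a basal keratin, ran from 0.389 CPM in Mz-ChA-2 over a median of 10.5 CPM to 141 CPM in SNU-308. KRT17 (NM_000422) ran from 0.778 CPM in Mz-ChA-2 over a median of 17.1 CPM to 1123 CPM in SNU-478. The other lines high in KRT17 were TFK-1 (934 CPM), Sk-ChA-1 (928 CPM), HuH28 (614 CPM), SNU-308 (485 CPM) and TGBC2TKB (212 CPM), so HuH28, lowest of all lines in KRT8, KRT18 and KRT19, was among the highest in KRT17. KRT16 (NM_005557), which forms filaments with KRT6, was high in a single line, with 491 CPM in Sk-ChA-1 against 21.99 CPM in SNU-308, the next highest. KRT9, the keratin of palm and sole skin, was likewise high in Sk-ChA-1 alone, 14.5 CPM against 0.490 CPM in the next line. The basal pair was weak: KRT5 reached 10 CPM in SNU-478 alone (36.6 CPM) and KRT14 in Sk-ChA-1 (36.8 CPM) and OCUG-1 (21.2 CPM). KRT14, KRT16 and KRT17 share 23.8%, 22% and 17.4% of their 50-base stretches with other annotated keratin genes or pseudogenes.

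SNU-308, a gallbladder line, carried the keratins of stratified mucosa. KRT4 (NM_002272) was at 1578 CPM there, 213 CPM in Sk-ChA-1 and 100.5 CPM in TFK-1, and the median of the 20 lines was 1.47 CPM. Its partner KRT13 (NM_153490) was at 407 CPM in SNU-308, 125 CPM in TGBC14TKB and 102 CPM in EGI-1, over a median of 0.432 CPM. Both were highest in SNU-308, but the lines next in order differed. KRT6A (NM_005554) was at 1721 CPM in SNU-308, with a Poisson 95% interval of 1700 to 1743 CPM, against 17.7 CPM in SNU-478, the next highest. KRT6C was at 124 CPM in SNU-308 and at 8.38 CPM in SNU-869, while KRT6B had its highest value in SNU-869, 107 CPM, followed by SNU-308 with 57.3 CPM. Altogether 17 keratins reached 10 CPM in SNU-308, 10 of them stratified. Of the 23 keratins that reached 10 CPM anywhere, 7 had their highest value there, among them KRT74 of the root sheath at 18.98 CPM, which stayed under 0.1 CPM in every other line. The order within the KRT6 trio rests on few distinguishing bases. Their coding sequences of 1692 bases are 97.5% identical between KRT6A and KRT6B, 97.9% between KRT6A and KRT6C and 98.5% between KRT6B and KRT6C. Of the 50-base stretches, 39.1% of KRT6A, 47.1% of KRT6B and 53.6% of KRT6C occur in another keratin gene or pseudogene, so the counts of the 3 can be mixed. The 100-base stretch in which they differ most, coding bases 646 to 745 counted from the start codon (GENCODE transcripts, GRCh38), is shown with the 10 differing positions in capitals.
KRT6A: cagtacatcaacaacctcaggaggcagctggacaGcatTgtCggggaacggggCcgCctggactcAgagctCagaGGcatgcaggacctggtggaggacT
KRT6B: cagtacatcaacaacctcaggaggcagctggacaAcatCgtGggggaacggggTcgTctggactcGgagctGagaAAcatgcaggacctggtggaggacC
KRT6C: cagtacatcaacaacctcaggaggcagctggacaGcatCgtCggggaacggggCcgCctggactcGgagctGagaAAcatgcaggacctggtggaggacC
The leading 100 coding bases hold no differing position. The promoters of KRT4, high in few lines, and KRT10, present in all, are shown for the motif TATAAN that both carry at −29. They lie at chr12:52814067-52814366 and chr17:40822565-40822864 (RefSeq, GRCh38.p14, both on the minus strand, 250 bases before to 50 after the start).
KRT4: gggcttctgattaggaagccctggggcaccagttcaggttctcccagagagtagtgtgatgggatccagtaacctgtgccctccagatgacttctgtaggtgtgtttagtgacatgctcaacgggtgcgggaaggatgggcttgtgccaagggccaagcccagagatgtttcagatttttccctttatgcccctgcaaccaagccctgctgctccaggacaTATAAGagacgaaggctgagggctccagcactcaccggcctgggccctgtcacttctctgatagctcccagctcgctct
KRT10: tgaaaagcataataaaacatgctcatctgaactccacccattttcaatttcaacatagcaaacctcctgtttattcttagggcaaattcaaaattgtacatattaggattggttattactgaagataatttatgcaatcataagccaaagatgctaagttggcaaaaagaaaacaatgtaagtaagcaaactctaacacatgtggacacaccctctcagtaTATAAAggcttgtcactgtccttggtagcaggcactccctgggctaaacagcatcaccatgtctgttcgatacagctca
TATAAN, read on both strands, occurred in 27 of the 37 annotated promoters of keratin genes at hand, 73.0%, and in 20.4% of 35116 promoters of the same length. These 37 include 4 of KRT40, some of which overlap, and 2 of KRT85, and of the 17 keratins described with values they cover KRT4, KRT8, KRT10 and KRT20. The motif GGGCGG occurred in 6 of the 37, 16.2%, and in 45.0% of all. A match describes the letters in the window and no more.

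The keratins outside these classes were KRT80, a type II keratin of many epithelia, and KRT23, a type I keratin. KRT80 (NM_001081492) ran from 0.0778 CPM in Mz-ChA-2 over a median of 81.2 CPM to 601 CPM in EGI-1, and the lowest value rests on 1 count. KRT23 (NM_015515) was at 836 CPM in SNU-869, 333 CPM in SNU-1196 and 149 CPM in SNU-245. It was between 7.93 and 33.9 CPM in 6 other lines and at 0.986 CPM or less in the remaining 11. The 3 lines highest in KRT23 are all primary lines from the same repository.

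Of the hair shaft keratins KRT81 and its neighbour KRT83 reached 10 CPM. KRT81 (NM_002281), a type II hair keratin, was at 2484 CPM in EGI-1, 1456 CPM in TFK-1, 954 CPM in HuCCT1, 631 CPM in SNU-1079, 155 CPM in TGBC14TKB and 143 CPM in TGBC2TKB. SNU-478 had 13.01 CPM and the other 13 lines 4.33 CPM or less. Hair keratins made up 18.9% of the keratin CPM per kb in EGI-1, 12.4% in HuCCT1, 11.2% in SNU-1079 and 9.41% in TFK-1. KRT83, next to KRT81 on chromosome 12, was above 1 CPM in 6 lines, the same 6 that passed 50 CPM of KRT81, with 26.6 CPM in EGI-1 and 11.3 CPM in TFK-1. That match was seen in the values. Of the 50-base stretches of KRT81, 44.6% occur in another keratin gene or pseudogene, and 12.8% of those of KRT83. Stretches common to KRT81 and KRT83 were fewer, 6.22% of those of KRT81 and 6.41% of those of KRT83. The part of shared reads in the match of KRT83 with KRT81 was not tested. The part of KRT86, which was not analysed here, in the KRT81 counts was not tested either. Below 10 CPM, KRT34, a type I hair keratin, was at 5.51 CPM in G415 and 3.16 CPM in HuCCT1, and KRT85, of type II, was at 4.54 CPM in EGI-1. The remaining 12 hair keratins stayed under 1 CPM.

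Partner keratins were compared across lines on log2(CPM + 0.5), with 12 relations chosen with earlier results of these data known. KRT8 has a gap of 2.74 log2 units below which lie only HuH28 and G415, so its relations are given within the 18 lines above the gap. There KRT8 and KRT18 rose together (r = 0.93, permutation p = 1e-05, the smallest the permutations can give; rho = 0.91, p = 1e-05). Both had a permutation p of 0.00013 after adjustment over the 13 relations computed within a side of a gap, and r was 0.89 without TFK-1 and SNU-245. Among the 6 lines supplied by KCLB it was 0.96 with an exact permutation p of 0.00417. The 6 supplied by RIKEN, which include G415, gave 0.98 with an exact permutation p of 0.00139. For KRT8 and KRT19 within the 18 lines r was 0.41 (permutation p = 0.0889, adjusted p = 0.289) and rho 0.42 (p = 0.0830, adjusted p = 0.226). KRT7 and KRT19 over 20 lines had r = 0.41 (permutation p = 0.0754, adjusted p = 0.129 over the 12 relations) and rho = 0.39 (p = 0.0933, adjusted p = 0.118), with r = 0.51 without Mz-ChA-2 and SNU-869. For this pair r differed between suppliers, with 0.89 in RIKEN lines (exact permutation p = 0.0139) and −0.03 in KCLB lines (exact permutation p = 0.899).

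KRT4 and KRT13 correlated over the 20 lines (r = 0.73, permutation p = 0.0009, adjusted p = 0.00436; rho = 0.57, p = 0.00996, adjusted p = 0.0315). Without Sk-ChA-1 and SNU-308 r was 0.53 (permutation p = 0.0228, adjusted p = 0.0683), so the call rested on these lines. It was 0.97 in KCLB lines (exact permutation p = 0.00972), which include SNU-308, and 0.68 in RIKEN lines (exact permutation p = 0.0792). KRT6A and KRT16 had r = 0.31 (permutation p = 0.153, adjusted p = 0.175) and rho = 0.56 (p = 0.0118, adjusted p = 0.0315), KRT6A and KRT17 r = 0.42 (permutation p = 0.0537, adjusted p = 0.107) and rho = 0.41 (p = 0.0726, adjusted p = 0.109). Without SNU-308 and SNU-478 both r values were 0.20, and the rho of KRT6A and KRT16 was 0.47 (permutation p = 0.0520), so its call rested on these lines. For the basal pair KRT5 and KRT14 r was 0.14 (permutation p = 0.562, adjusted p = 0.562) and rho 0.38 (p = 0.0983, adjusted p = 0.118), with r = 0.29 without HuCCT1 and SNU-478. For KRT8 and KRT20 within the 18 lines above the KRT8 gap r was 0.48 (permutation p = 0.0452, adjusted p = 0.196) and rho 0.39 (p = 0.111, adjusted p = 0.226). KRT20 itself splits into 5 and 15 lines, and among the 15 lower lines r was 0.29 (permutation p = 0.302, adjusted p = 0.570).

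VIM, the intermediate filament gene of mesenchymal cells, fell into 9 lines at 249.2 CPM or more and 11 at 6.22 CPM or less, with nothing between. Its highest values were 2453 CPM in SNU-1079, 2265 CPM in OCUG-1, 1745 CPM in TGBC2TKB, 1628 CPM in Sk-ChA-1 and 1552 CPM in HuH28. High VIM stood beside high keratin in Sk-ChA-1, which had the highest KRT19 of all lines, and G415 was lowest in both VIM (0.0724 CPM) and summed keratins. Over all 20 lines r of KRT8 and VIM was −0.33 (permutation p = 0.160, adjusted p = 0.175). The rho was −0.46 (permutation p = 0.0405, adjusted p = 0.0694). Within the 18 lines above the KRT8 gap r was −0.67 (permutation p = 0.0032, adjusted p = 0.0208). There rho was −0.67 (permutation p = 0.00313, adjusted p = 0.0203), and r was −0.60 without TFK-1 and SNU-245. These values pool lines of high and low VIM, so they do not show a graded fall of VIM with KRT8. Within the 2 groups of VIM itself no such relation passed. Among the 9 high lines r with KRT8 was −0.31 (permutation p = 0.452, adjusted p = 0.635) and among the 11 low lines 0.22 (permutation p = 0.550, adjusted p = 0.635). The same held for KRT18, KRT19 and KRT7, whose r with VIM within either group lay between −0.36 and 0.46, with adjusted p of 0.410 or more.

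**Figure D3:**
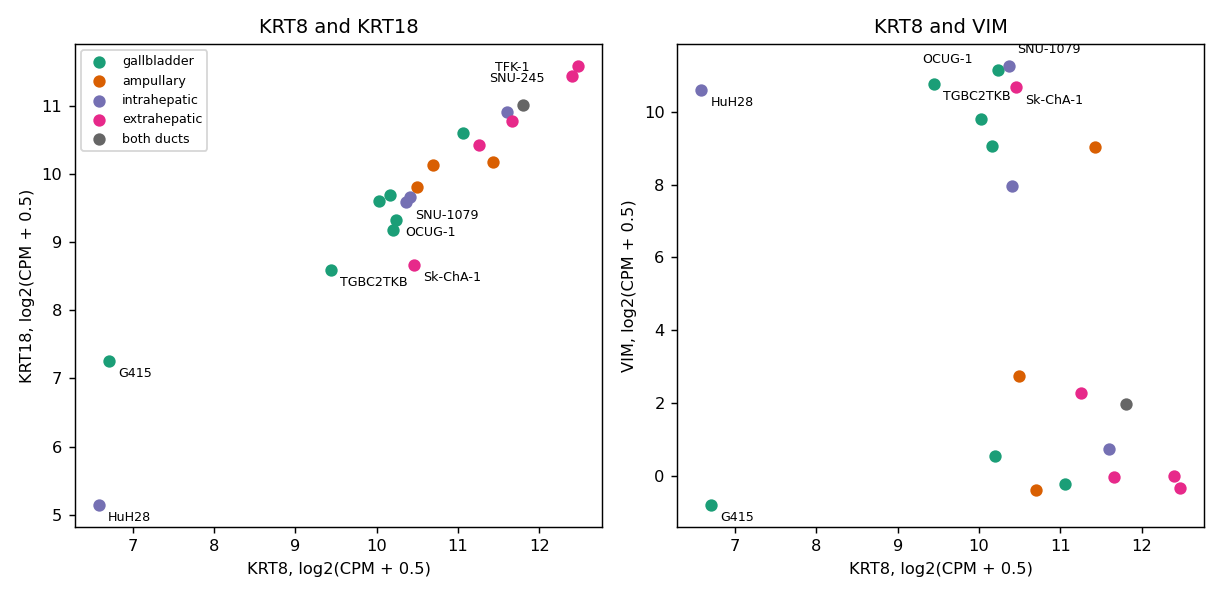
KRT8 against KRT18 (left) and against VIM (right), both as log2(CPM + 0.5), with 1 point per line coloured by site. KRT8 and KRT18 lie along a diagonal from HuH28 and G415 to TFK-1, and VIM splits into 9 high and 11 low lines, with HuH28 high and G415 low at similar KRT8.

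The site comparison asked whether keratin levels differ by where in the biliary tract a line arose, each site set against the mean of the other 3 in 19 lines. Of the 53 keratins, 23 passed the filter on low counts. The edgeR quasi-likelihood test called none of them in any of the 6 site contrasts at an adjusted p under 0.05, where 0% of 16615 genes were called for gallbladder, 0.00602% for ampullary, 0% for intrahepatic, 0% for extrahepatic, 0% for intrahepatic against extrahepatic lines and 0.00602% for any difference among the 4 sites. At an unadjusted p under 0.05 there were 6 keratins for gallbladder (4 higher, 2 lower), 1 for ampullary (higher), 2 for intrahepatic (both lower), 6 for extrahepatic (all higher), 3 for intrahepatic against extrahepatic (all lower) and 4 for any difference. The share of all genes at that level was 12.3%, 5.25%, 9.47%, 7.01%, 9.4% and 10.7% in the same order. DESeq2 called 2 keratins for gallbladder, KRT23 and KRT4, where it called 2.30% of genes. It called KRT20 for intrahepatic lines against the other sites (1.61% of genes) and against extrahepatic lines (1.79%), and no keratin for ampullary (0.800%), extrahepatic (1.13%) or any difference (1.88%). It gave no p for KRT16, KRT6A, KRT6B and KRT6C in any of the 6 site contrasts, so these 4 could not be called there. At an unadjusted p under 0.05 DESeq2 had 5, 3, 4, 4, 4 and 6 keratins in these contrasts, against 13.8%, 7.81%, 10.3%, 8.94%, 11.0% and 13.4% of all genes. The median log2 difference over the 23 keratins was −0.53 for gallbladder, 0.10 for ampullary, −0.80 for intrahepatic, 1.11 for extrahepatic and −1.11 for intrahepatic against extrahepatic lines. Over all genes tested it was 0.11, −0.11, 0.04, −0.02 and 0.03 in that order. For the 17 keratins described above the groups overlapped in every one of these contrasts.

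KRT20 ran from 0 over a median of 0.169 to 1.31 CPM in the 4 intrahepatic lines, against 0.0746, 0.912 and 941 CPM in the 5 extrahepatic lines and 0.0685, 0.233 and 941 CPM in the 15 lines of the other sites. Most lines of every site were low, and the groups differed in the few high lines. The log2 difference was −7.62 ± 3.46 (SE) against the other sites, with an edgeR adjusted p of 0.501 and a DESeq2 adjusted p of 0.0151, and −9.69 ± 3.85 against extrahepatic lines, with adjusted p of 0.452 and 0.00473. Counting OZ as intrahepatic brought the difference from the other sites to 0.08. OZ carries the extrahepatic label as well, and the difference with OZ counted as extrahepatic is not reported here. With each line left out in turn, DESeq2 kept its call against the other sites in 14 of 19 fits, and its adjusted p was 0.269 without SNU-869, 0.112 without HuH28 and 0.0657 without TKKK, with none given without EGI-1 or SNU-245. Against extrahepatic lines the call was kept in 17 of 19 fits, and no adjusted p was given without EGI-1 or SNU-245. KRT12 had log2 differences of −4.37 ± 1.92 against the other sites (edgeR adjusted p = 0.478) and −6.56 ± 2.17 against extrahepatic lines (adjusted p = 0.411). Counting OZ as intrahepatic brought the difference of KRT12 from the other sites to 0.068. The intrahepatic lines held at most 1 count of KRT12 each, so the size of its differences depends on the fit. KRT14 had a log2 difference of −2.10 ± 1.26 in intrahepatic lines (edgeR adjusted p = 0.649).

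For gallbladder lines KRT23 had a log2 difference of −4.43 ± 1.72 (edgeR adjusted p = 0.310, DESeq2 adjusted p = 0.0172), with a median of 0.164 CPM and a highest value of 21.2 CPM in SNU-308, against a median of 12.2 CPM in the other sites. DESeq2 kept the call in 16 of 19 fits with a line left out, with an adjusted p of 0.223 without SNU-869 and none given without SNU-1196 or SNU-245. The gallbladder lines G415, Mz-ChA-2, NOZ and OCUG-1 were also labelled metastatic. The site and source comparisons of KRT23 therefore share these lines and are not independent. KRT6A, KRT6C and KRT4 had log2 differences of 6.53 ± 1.95, 4.83 ± 1.77 and 4.78 ± 1.77, with edgeR adjusted p of 0.231, 0.281 and 0.284. All 3 rested on SNU-308, since without it they were −0.01, −1.80 and −0.38. KRT4 had a lower median in gallbladder lines than in the others, 0.389 against 3.40 CPM, and its DESeq2 call (log2 difference 4.77, adjusted p = 0.0330) was kept in 9 of 19 such fits. Without SNU-308 it was −0.35 with a DESeq2 adjusted p of 0.941.

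Extrahepatic lines had the highest simple keratins, 5657 ± 1244 CPM per kb (SD, n = 5), against 2009 ± 1516 in gallbladder (n = 7), 3544 ± 718 in ampullary (n = 3) and 2449 ± 1658 in intrahepatic lines (n = 4). KRT8 was at 3248 CPM in the median extrahepatic line and had a log2 difference of 1.33 ± 0.55 from the other sites (edgeR adjusted p = 0.647, DESeq2 adjusted p = 0.362). KRT16 had the smallest p there (log2 difference 4.17 ± 1.14, edgeR adjusted p = 0.390), followed by KRT12 (4.38 ± 1.25, adjusted p = 0.442) and KRT20 (5.30 ± 2.06, adjusted p = 0.599). The KRT16 value was 0.23 without Sk-ChA-1. For ampullary lines the smallest p values were those of KRT23 (4.15 ± 1.498, edgeR adjusted p = 0.904), KRT5 (3.12 ± 1.58, adjusted p = 0.923) and KRT6B (3.47 ± 1.84, adjusted p = 0.923), which turned to −0.63 without SNU-869, −0.53 without SNU-478 and −1.19 without SNU-869. With the repository that supplied the line as a covariate, edgeR again called 0 keratins in all 6 site contrasts, and the numbers at an unadjusted p under 0.05 were 4, 0, 0, 0, 0 and 1 in the order above. The share of all genes at that level in this fit is not given here. The fall in these numbers is therefore not a result about keratins in particular.

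**Figure D4:**
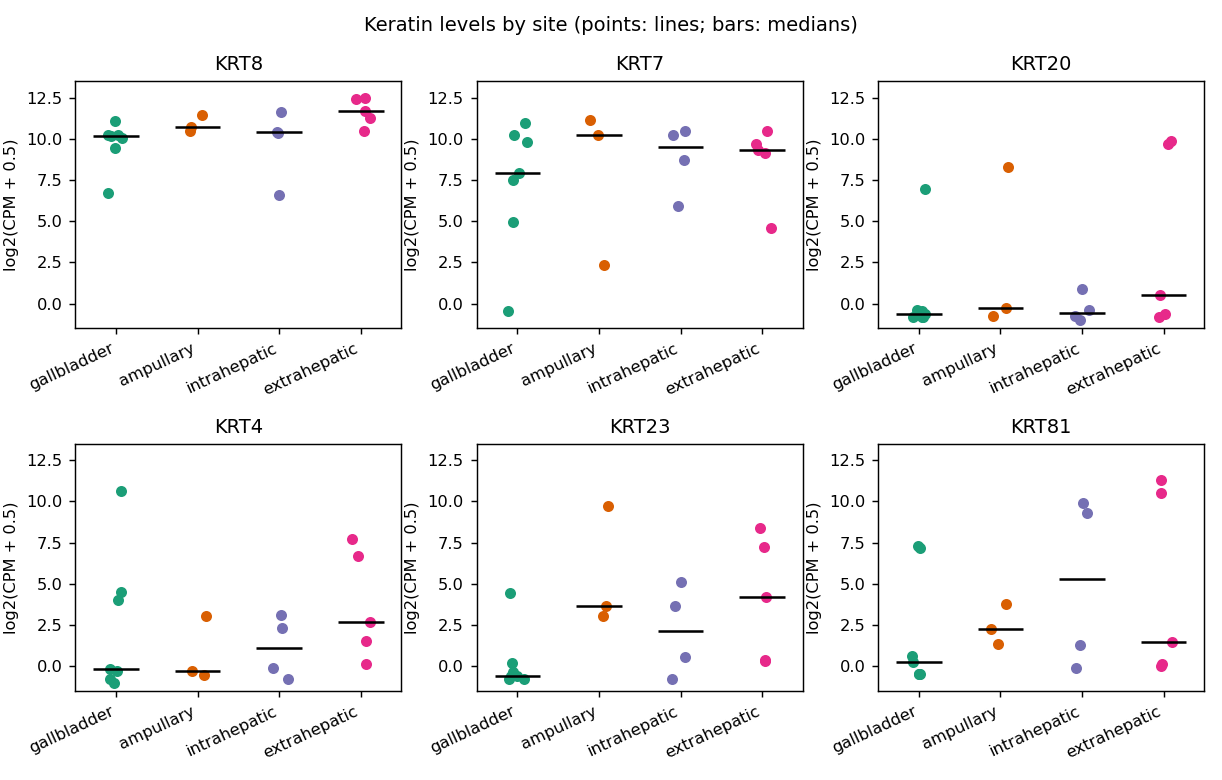
Levels of 6 keratins as log2(CPM + 0.5) in gallbladder, ampullary, intrahepatic and extrahepatic lines, with 1 point per line and a bar at the median of each site. The sites overlap in each panel, and KRT20, KRT4 and KRT81 fall into few high and many low lines within a site.

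The source comparison set the 7 lines from ascites or a metastasis against the 13 from primary tumours. Of the 17 keratins that passed the filter, edgeR called 0, where it called 0% of 14843 genes, and 6 had an unadjusted p under 0.05 (3 higher, 3 lower), against 7.73% of all genes. At that level DESeq2 had 5 keratins (1 higher, 4 lower), against 10.6% of all genes. DESeq2 called KRT23 and KRT81, both lower in metastatic lines, where it called 1.22% of genes. KRT23 ran from 0.0724 over a median of 0.415 to 12.2 CPM in the metastatic lines, and from 0.0828 over 12.3 to 836 CPM in the primary lines. The groups overlapped, since HuCCT1 was the only metastatic line above 1 CPM and 5 of the primary lines were also under 1 CPM. Its log2 difference was −5.74 ± 1.90 (edgeR adjusted p = 0.461) and −5.25 ± 1.12 (DESeq2 adjusted p = 0.00137). DESeq2 kept this call in 14 of 20 fits with a line left out, namely without a primary line or without HuCCT1. The other 6, each without another metastatic line, gave no adjusted p. So the call was not tested with HuCCT1 kept and another metastatic line left out. DESeq2 replaces outlying counts in groups of 7 or more lines, here both source groups, and the part of this in the KRT23 call was not tested. KRT81 ran from 0.217 over a median of 0.522 to 954 CPM in the metastatic lines and from 0.428 over 4.33 to 2484 CPM in the primary lines. Its log2 difference was −1.47 ± 1.93 in edgeR (adjusted p = 0.902) and −5.45 ± 1.24 in DESeq2 (adjusted p = 0.00346), which replaces outlying counts in groups of this size, and HuCCT1 holds the only high metastatic value. With a line left out in turn, DESeq2 kept the KRT81 call in 3 of 20 fits and gave no adjusted p in the same 6. In each of those 6 fits the DESeq2 log2 difference of KRT81 was −0.26, so its size depended on the fit.

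Source is bound up with repository and with site. All ampullary lines were primary, and Sk-ChA-1 was the only metastatic line among those labelled extrahepatic alone. The gallbladder lines G415, Mz-ChA-2, NOZ and OCUG-1 were metastatic. All 6 KCLB and both DSMZ lines were primary and both Zurich lines metastatic, while HSRRB supplied 3 metastatic and 1 primary and RIKEN 2 metastatic and 4 primary lines. Within RIKEN, KRT23 was at 0.0724 and 12.2 CPM in the metastatic lines and at 0.0828, 0.164, 0.280 and 7.93 CPM in the primary lines, so the groups overlapped. Within HSRRB it was at 0.0777, 0.415 and 0.628 CPM in the metastatic lines and 33.9 CPM in HuH28, the primary line. With repository as a covariate the log2 difference of KRT23 was −2.45 ± 1.95 (edgeR adjusted p = 0.9751) and with site as a covariate −3.54 ± 1.89 (adjusted p = 0.786). The other small p values were those of KRT16 (3.52 ± 1.06, edgeR adjusted p = 0.454), which was −0.43 without Sk-ChA-1, and KRT6A (−6.61 ± 2.50, adjusted p = 0.538), which was −1.496 without SNU-308. Stratified keratins were 4.31 ± 4.90% of the keratin total in metastatic lines (SD, n = 7) and 12.4 ± 20.6% in primary lines (n = 13). The medians went the other way, 3.53% in metastatic and 2.08% in primary lines. The highest primary shares were those of HuH28 (72.0%), SNU-308 (33.9%) and SNU-478 (21.0%).

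**Figure D5:**
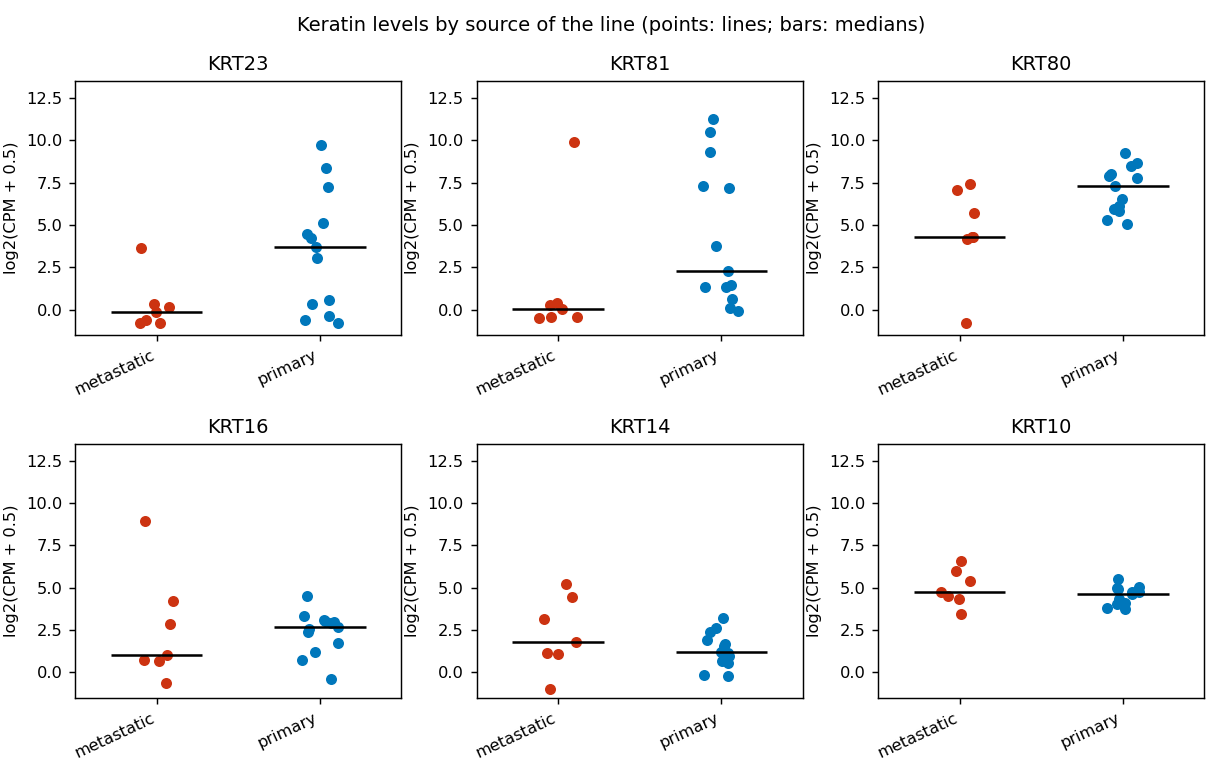
Levels of 6 keratins as log2(CPM + 0.5) in the 7 metastatic and 13 primary lines, with 1 point per line and a bar at the median. KRT23 and KRT81 are low in 6 of the 7 metastatic lines with HuCCT1 above them, and the primary lines spread over the whole range.

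The partners of keratins were looked at in 5 lists, other intermediate filaments (13 genes), desmosomes and plakins (16), hemidesmosomes (7), the cornified envelope with TP63 (13, of which 11 in the table) and epithelial transcription factors (11). edgeR called 0 genes of any list in any of the 7 contrasts, against the same shares of all genes as above. DESeq2 called NES, a filament gene of progenitor cells, lower in intrahepatic lines than in the other sites (log2 difference −5.05, DESeq2 adjusted p = 0.000367). It called NES lower than in extrahepatic lines as well (−4.50, DESeq2 adjusted p = 0.0177). FLG, which bundles keratins in the skin, was called higher in intrahepatic than in extrahepatic lines (4.81, DESeq2 adjusted p = 0.0355). Of all genes DESeq2 called 1.61% against the other sites and 1.79% against extrahepatic lines. For gallbladder lines 3 of 11 filament genes and 2 of 6 cornified genes tested had an edgeR unadjusted p under 0.05, all higher. The share of all genes at that level was 12.3%. Among them were NEFM (log2 difference 5.88 ± 1.74, edgeR adjusted p = 0.225), INA (5.98 ± 1.88, adjusted p = 0.248), TP63 (6.02 ± 1.77, adjusted p = 0.225) and FLG (3.05 ± 1.06, adjusted p = 0.270). TP63, the transcription factor of basal cells, was at 586 CPM in SNU-308, 35.7 CPM in SNU-478 and 1.52 CPM or less in the other 18 lines. NEFM and INA were also highest in SNU-308, at 61.7 and 171 CPM. The desmosomal cadherins of stratified epithelia were named after their values were seen. DSG3 was at 198 CPM and DSC3 at 102 CPM in SNU-308, the highest of all lines. The next lines were SNU-245 for DSG3 (37.9 CPM) and Mz-ChA-2 for DSC3 (79.3 CPM). In SNU-308 DSG1 was at 1.37 CPM, DSC1 at 0.0685 CPM and DSG4 at 0. PKP1, a desmosomal plaque gene, was at 0.0685 CPM in SNU-308. Of the cornified envelope genes, FLG was at 24.9 CPM, TGM1 at 14.04 CPM, SPRR1A at 1.23 CPM and the other 7 measured at under 1 CPM in SNU-308, with no count of IVL. DSP, which ties keratin filaments to desmosomes, was at 0.685 CPM in HuH28 and 0.389 CPM in OCUG-1 and at 148 CPM or more in the other 18 lines. DSG2, the desmosomal cadherin of simple epithelia, was at 0.599 CPM in HuH28 and at 429 CPM in OCUG-1.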

How the data were processed

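RNA was sequenced from 20 cell lines with a stranded mRNA kit, per the labels' protocols. The deposited values are raw read counts per RefSeq entry, 1 column per line. Per the submitters' processing notes, the authors used Trimmomatic, TopHat2 2.0.8, Picard 1.69 and featureCounts on hg19 (GRCh37). Neither the strand setting nor the annotation release of the counting is given in the sources used here. Read-level multi-mapping between keratin copies and pseudogenes was not analysed here.

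RefSeq identifiers were named with a RefSeq table (GRCh38.p14, names only) and GENCODE, and 670 entries with 1.53% of the counts stayed unnamed. No sample column was left unused (0). The members and the gene lists were chosen with earlier results of these data known. CPM used TMM-scaled library sizes, log values were log2(CPM + 0.5), and CPM per kb used GENCODE transcript lengths. Differences were tested with edgeR 4.0.16 (R 4.3.3; filterByExpr, TMM, robust quasi-likelihood F test, Benjamini-Hochberg over all genes tested) among 19 lines for site and 20 for source, called at an adjusted p under 0.05, and with DESeq2 1.42.0 as an alternative. ± on a log2 difference is its standard error. Correlations used 100000 permutations, or exact ones within suppliers (SciPy 1.17.1). The edgeR fit was tested on simulated counts for the gallbladder contrast alone, and DESeq2 was not tested in this way. Keratins described with values had a median of at least 10 CPM or a highest value of at least 50 CPM, or were called, or were among the 3 smallest p values of a contrast. Of each partner list, VIM, called genes and up to 2 genes of smallest p per contrast were eligible. Each line is 1 library, so p-values measure the spread between lines. Alternatives were other scaling, no filter or a stricter filter on low counts, DESeq2, covariates, OZ as intrahepatic or as extrahepatic, and each line left out. Of the marker lists, 2 genes are not reported here.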

Additional observations from a re-analysis of the deposited data

Results flagged for a closer look

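Dixon's gap test at the 95% level on log2(CPM + 0.5) looked for lines that stood apart from their group. It flagged a line in 17 of 68 combinations of a keratin and a group. This number cannot be set against a chance rate. Of the keratins checked, 9 were chosen for a highest value of at least 50 CPM despite a median under 10 CPM. Some values, such as KRT8 in G415, also count in both a site and a source group. Values far below the group were KRT19 in HuH28 among intrahepatic lines (1.03 CPM), KRT8 in G415 among gallbladder and among metastatic lines (103.7 CPM), KRT7 in EGI-1 among extrahepatic lines (23.6 CPM) and KRT80 in Mz-ChA-2 among gallbladder and among metastatic lines (0.0778 CPM). Values far above the group in SNU-308 among gallbladder lines were KRT6A (1721 CPM), KRT6C (124 CPM), KRT6B (57.3 CPM) and KRT23 (21.2 CPM), and KRT20 stood apart in NOZ (124.5 CPM). HuCCT1 was above the other metastatic lines in KRT81 (954.5 CPM), KRT6B (22.5 CPM) and KRT23 (12.2 CPM), and above the other intrahepatic lines in KRT6B (22.5 CPM) and KRT6C (1.02 CPM). KRT16 stood apart in Sk-ChA-1 among extrahepatic lines (491 CPM). No explanation of these values was tested.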

How the results depend on the processing

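edgeR called 0 keratins in each of the 7 contrasts under every alternative edgeR fit run, while DESeq2 called 2 for gallbladder, 1 for intrahepatic against the other sites, 1 for intrahepatic against extrahepatic and 2 for metastatic lines. Over all genes DESeq2 called 382, 133, 267, 188, 298, 312 and 181, against 0, 1, 0, 0, 0, 1 and 0 by edgeR. DESeq2 turned the log2 difference of KRT6A (−0.067), KRT6C (−1.82) and KRT6B (−4.35, against 0.68 in edgeR) in gallbladder and of KRT16 in metastatic lines (−0.42). It replaces outlying counts in groups of 7 or more lines, which include the gallbladder group, and the part of this in these values was not tested. Counting OZ as intrahepatic turned KRT12 (0.068) and KRT20 (0.076). Leaving out a line gave −0.63 to 5.40 for KRT23, −0.53 to 4.79 for KRT5 and −1.19 to 5.87 for KRT6B in ampullary lines. It gave −0.0066 to 7.71 for KRT6A, −1.80 to 6.41 for KRT6C and −0.38 to 5.92 for KRT4 (−0.36 to 5.94 in DESeq2) in gallbladder lines, and −0.43 to 3.85 for KRT16 in metastatic lines. The r of KRT7 and KRT19 was −0.028 in KCLB lines and that of KRT5 and KRT14 −0.11 in RIKEN lines. That of KRT6A and KRT16 was 0.92 in KCLB lines, which include SNU-308 and SNU-478. The r of KRT4 and KRT13 was 0.53 without its 2 outermost lines and 0.68 in RIKEN lines. The median log2 of type II over type I was 0.14 without division by length, and coding length and the leave-one-out fits of DESeq2 were chosen after seeing the data. The cause was not tested. No paired analysis was possible because replicate numbers only name lines. With 3 to 7 lines per site, single lines set many values, and low keratins rest on few counts.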
